A study of Homo sapiens with 4 samples.

Results

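The p53 pathway and its target genes were examined as a list of 29 named genes in Raji, an established Burkitt lymphoma line that carries Epstein-Barr virus. A pair of clones was compared on Affymetrix HG-U133 Plus 2.0 arrays: one with TALEN-mediated downregulation of DLEU1, a gene for a long non-coding RNA, with 2 arrays (TALENs are designer nucleases that cut a chosen DNA site), and a wild-type control clone, with 2 arrays. Both clones grew in RPMI medium with 10% fetal bovine serum, and no agent was named beyond the TALENs, which the labels enter for the control arrays too although the design text calls that clone wild type. Each genotype is a single clone, so an effect of DLEU1 and a difference between clones cannot be told apart, and the p-values below measure only the spread between arrays, which may be technical. Of the 29 genes, 27 had at least 1 of 70 probe sets that the platform annotation assigns to that gene alone, and 24 were bright enough to be tested, out of 13292 tested genes in all. The annotation used here lists no such probe set for BTG2, an antiproliferative transcription cofactor, or FDXR, a mitochondrial reductase.

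The p53 protein is a transcription factor that is stabilised by DNA damage and other stress. It switches on genes that halt the cell cycle, repair DNA, adjust metabolism or start cell death, and among its targets are its own inhibitors MDM2 and PPM1D, which close a negative feedback loop. Many Burkitt lymphomas lose parts of this circuit, and Raji is known to carry mutated p53.

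In the DLEU1-downregulated clone, 10 members were lower after the arrays had been brought to a common distribution, and 5 were higher. The stress protein gene TP53INP1 was 9.48-fold lower, and MDM2, MDM4, GADD45A, GADD45B and POLH were lower by 1.56-fold to 1.88-fold. The genes PLK3, EI24, ZMAT3, TIGAR and RPS27L were higher, by 2.26-fold for PLK3 and 1.17-fold for RPS27L at the ends. The cell cycle inhibitor CDKN1A, the best known p53 target, did not pass the threshold. After quantile normalization 5 of 24 tested members rose and 10 fell at an adjusted p below 0.05 in limma, while 9 did not pass. Over all tested genes, 20.6% rose and 20.6% fell, so the share of rises among members (20.8%) was near this background and the share of falls (41.7%) lay above it. No test was made of the list as a whole, and its members were chosen with earlier results of these data known.

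The falls depended on how the arrays were scaled. The 2% trimmed mean intensity of the deposited values was 172 and 197 on the DLEU1-downregulated arrays and 163 and 131 on the control arrays. On the values as deposited 5 members rose and 2 fell, against 20.3% and 5.75% of all genes (26.1% in either direction). The median log2 change over all tested genes was 0.19 on that scale and -0.01 after quantile normalization. The median gap between the scales grew with brightness, to 0.36 in the brightest 10% of probe sets, and for the tested members it ran from 0.04 to 0.38. The 5 rises passed on all 4 scales tried, as did the falls of GADD45A and TP53INP1. The other 8 falls, those of MDM2, MDM4, GADD45B, XPC, CCNG1, PPM1D, TRIAP1 and POLH, did not pass as deposited. As deposited, limma took each variance from a trend with intensity over all probe sets (infinite prior degrees of freedom), and nearly so after median centring (145). Those p-values thus rest little or not at all on a gene's own spread between arrays. After quantile normalization the prior degrees of freedom were 6.76, and 6.62 with a common trimmed mean. The p-values on these scales therefore also draw on the trend over all probe sets, and only in part on a gene's own arrays. As deposited without that trend, RPS27L (limma adjusted p = 0.101) and GADD45A (0.13) did not pass. Which scale is closer to the RNA content of the cells cannot be told from these arrays. All intensities and log2 changes below are quantile normalized unless stated otherwise, and a log2 change is that of the intensity plus 16, which understates changes of dim genes.

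**Figure D1:**
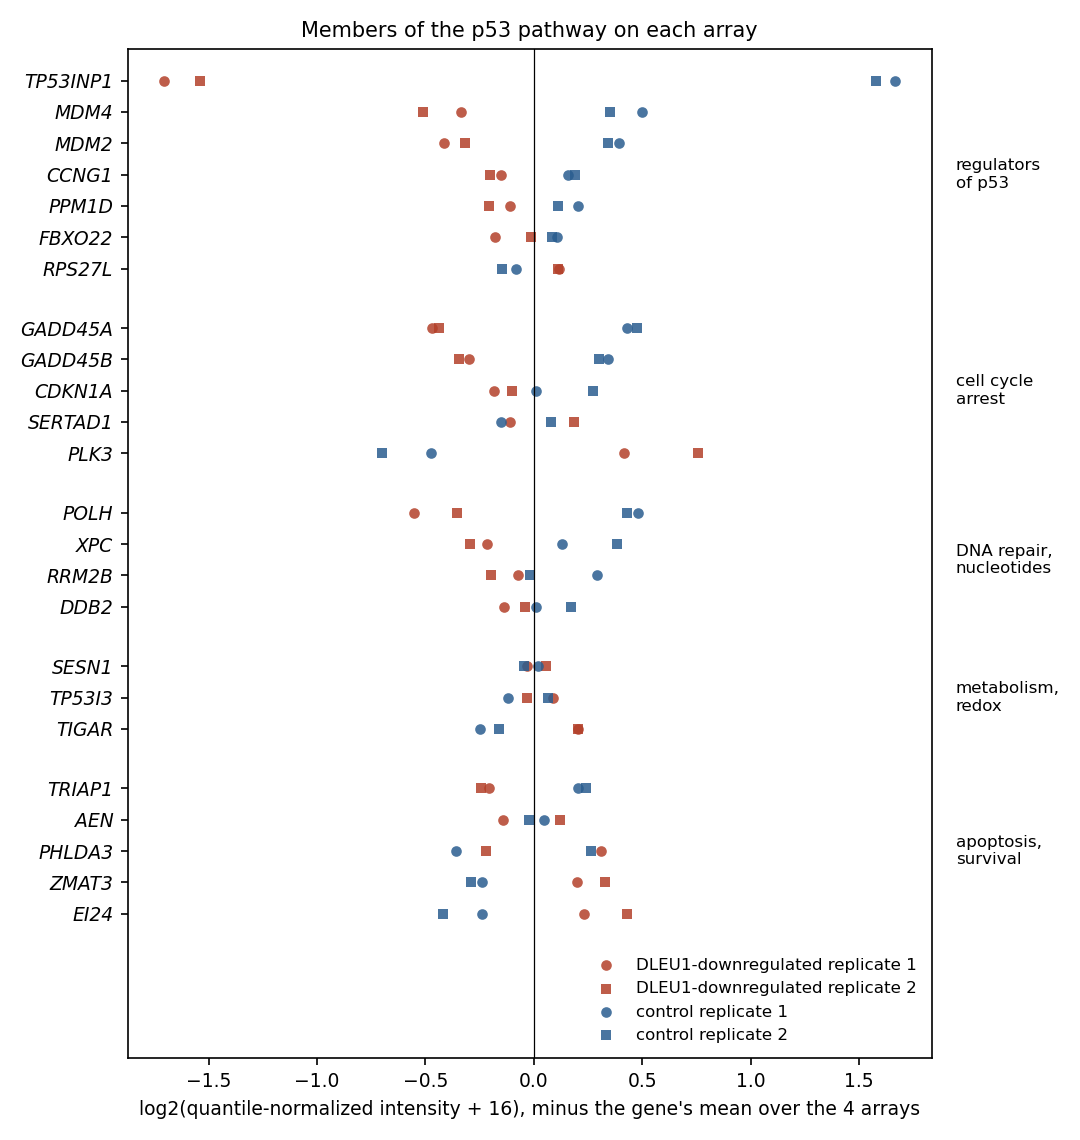
Each row is a tested member and each point an array, drawn as log2(quantile-normalized intensity + 16) minus the gene's mean over the 4 arrays, with rows grouped by role. The groups did not overlap for 19 of 24 members, and TP53INP1 had the widest separation.

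The groups did not overlap for 19 of the 24 tested members, beside 69.9% of all tested genes, so separation alone does not mark the list. With 2 arrays a group, an exact two-sided permutation test over the 6 assignments cannot give a p below 0.333, which is the value of every member with separate groups. A change of at least 2-fold past the threshold was met by TP53INP1 and PLK3, that is by 2 of 24 members, beside 6.47% of all genes. The plot of both scales shows each tested member's log2 change to be higher as deposited, by 0.04 at the least.

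**Figure D2:**
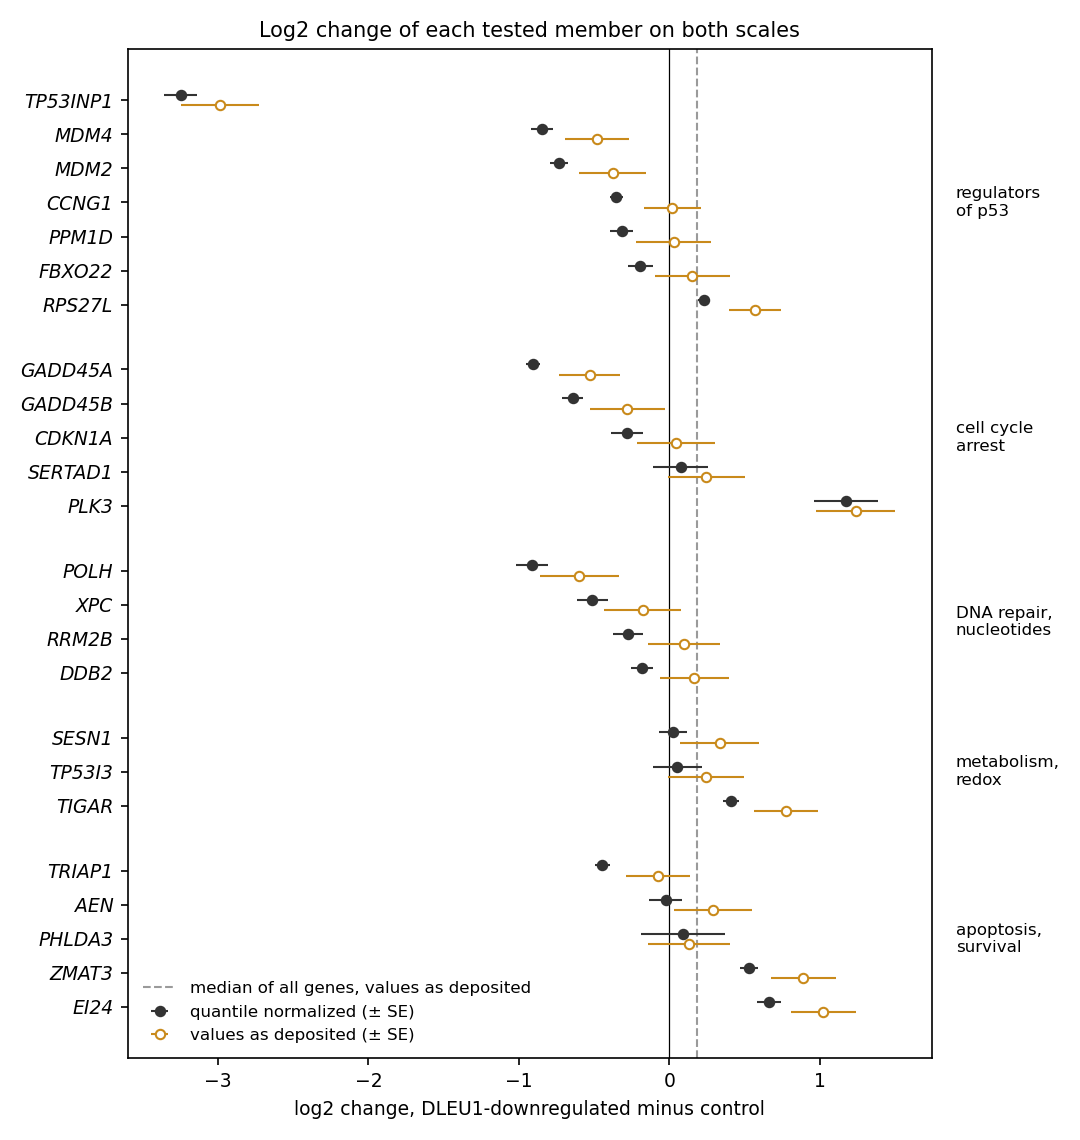
Log2 change (DLEU1-downregulated minus control) of each tested member, with standard errors, after quantile normalization (filled) and on the values as deposited (open). The dashed line marks the median of all tested genes on the deposited scale, 0.19, and on that scale the 5 called rises and the uncalled SESN1, AEN, SERTAD1 and TP53I3 lie above it.

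The regulators of p53 held the largest change of the list. TP53INP1 encodes a nuclear stress protein that promotes the apoptotic form of the p53 response and takes part in autophagy. Its brightest probe set read 57.2 and 66 on the DLEU1-downregulated arrays and 741.2 and 696.3 on the control arrays. No other member showed groups so far apart, and the log2 change was -3.25 ± 0.11 (SE) with adjusted p = 5.49e-07 in limma. As deposited the readings were 56.9 and 75.1 in the DLEU1-downregulated clone against 725.7 and 544.4 in the control clone, and the log2 change was -2.98. The gene's 2 other probe sets read at most 11.4 on every array and were not tested.

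MDM2, the ubiquitin ligase that marks p53 for degradation, averaged 1125 ± 53.3 in the DLEU1-downregulated clone and 1880 ± 45.6 in the control clone (SD, n = 2 arrays each). It read 1087 and 1162.4 on the arrays of the downregulated clone, below both control readings of 1911.8 and 1847.2. The log2 change was -0.73 with limma adjusted p = 2.92e-05, but -0.38 with adjusted p = 0.229 as deposited. MDM4, its relative without strong ligase activity that binds and blocks p53, read 1503.9 and 1326.6 on the DLEU1-downregulated arrays and 2688.4 and 2426.5 on the control arrays. Its log2 change was -0.85 (adjusted p = 4.58e-05), and -0.48 as deposited (adjusted p = 0.0898). On the normalized scale the arrays of the 2 clones were separate for both inhibitors.

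The remaining regulators moved less. CCNG1, a cyclin that brings a phosphatase to MDM2, read 3008.6 and 2899.8 in the DLEU1-downregulated clone and 3733.7 and 3818.3 in the control clone, a log2 change of -0.35 (adjusted p = 0.000369) that was 0.02 as deposited (adjusted p = 0.960). PPM1D, the phosphatase that switches off damage signalling, read 579.5 and 541.1 in the DLEU1-downregulated clone against 723.8 and 679.5 in the control clone. Its log2 change of -0.32 (adjusted p = 0.0114) was the only call among the 15 that was lost when single arrays were left out, with adjusted p = 0.0954 without DLEU1-downregulated replicate 2 and 0.0521 without control replicate 1. As deposited its change was 0.03 (adjusted p = 0.953). RPS27L, a ribosomal protein relative that binds MDM2, went the other way, with 5597.2 and 5582.2 in the DLEU1-downregulated clone and 4868.7 and 4665.8 in the control clone. Its log2 change was 0.23 (adjusted p = 0.00238), and 0.57 as deposited (adjusted p = 0.0084). Without the intensity trend in the limma fit it did not pass (adjusted p = 0.148). FBXO22, the substrate receptor of a ubiquitin ligase that acts on modified p53, read 540.5 and 609.9 in the DLEU1-downregulated clone and 663.6 and 652.9 in the control clone, and its change of -0.19 did not pass (adjusted p = 0.103). Of the 7 members that regulate p53, 1 rose and 5 fell after normalization, beside 20.6% rising and 20.6% falling over all tested genes. As deposited 1 rose and 1 fell, beside 20.3% and 5.75%. The roles hold few genes each, and none was tested as a group.

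RefSeq promoter windows of GRCh38.p14, which run from 250 bases before to 50 after a gene's start, were available for 24 of the 29 members (33 windows) and are shown for measured members that hold a p53 consensus site or that rose and hold a matched unit of one. The p53 consensus is a pair of 10-letter units, each its own reverse complement, set up to 13 bases apart, and a window was counted when all 20 letters matched with at most 2 mismatches outside the fixed C and G of each unit. Such a site was found in 2.93% of all 35116 windows and in 5 of the 33 member windows. These came from 4 members, MDM2 (overlapping windows with the same site), DDB2, AEN and FDXR. A single unit with no mismatch was found in 6.63% of all windows and in 7 of the 33 member windows. These came from 7 members, SESN1, DDB2, PLK2, AEN, FDXR, EI24 and RPS27L. Capitals mark the matched units in the 5 windows printed here, each read 5' to 3' on the gene's strand. The MDM2 window belongs to a second start inside the gene, where p53 is known to act.
MDM2 (chr12:68808767-68809066, plus strand): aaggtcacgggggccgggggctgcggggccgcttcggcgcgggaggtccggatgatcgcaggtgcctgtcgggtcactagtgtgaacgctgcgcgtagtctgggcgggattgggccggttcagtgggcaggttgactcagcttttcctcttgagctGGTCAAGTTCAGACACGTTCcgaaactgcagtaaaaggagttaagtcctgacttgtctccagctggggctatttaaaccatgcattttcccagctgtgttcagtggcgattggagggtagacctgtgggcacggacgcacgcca
DDB2 (chr11:47214724-47215023, plus strand): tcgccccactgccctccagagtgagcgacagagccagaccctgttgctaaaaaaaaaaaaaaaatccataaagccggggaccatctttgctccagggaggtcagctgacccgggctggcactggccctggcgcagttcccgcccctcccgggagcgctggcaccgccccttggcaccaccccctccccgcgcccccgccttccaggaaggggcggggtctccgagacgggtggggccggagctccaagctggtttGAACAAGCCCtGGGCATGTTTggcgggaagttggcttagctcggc
AEN (chr15:88621090-88621389, plus strand): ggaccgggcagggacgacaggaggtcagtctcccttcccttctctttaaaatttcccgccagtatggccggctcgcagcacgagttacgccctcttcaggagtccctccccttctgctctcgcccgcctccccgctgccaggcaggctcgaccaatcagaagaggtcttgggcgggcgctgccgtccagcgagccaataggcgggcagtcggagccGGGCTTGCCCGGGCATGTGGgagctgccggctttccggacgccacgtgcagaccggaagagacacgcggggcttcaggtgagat
EI24 (chr11:125569227-125569526, plus strand): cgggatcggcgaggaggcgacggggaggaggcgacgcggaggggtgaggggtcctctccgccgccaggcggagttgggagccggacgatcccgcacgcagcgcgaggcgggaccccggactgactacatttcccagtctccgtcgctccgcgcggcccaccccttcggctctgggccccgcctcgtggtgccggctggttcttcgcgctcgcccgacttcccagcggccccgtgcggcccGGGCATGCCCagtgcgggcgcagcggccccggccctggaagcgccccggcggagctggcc
RPS27L (chr15:63157428-63157727, minus strand): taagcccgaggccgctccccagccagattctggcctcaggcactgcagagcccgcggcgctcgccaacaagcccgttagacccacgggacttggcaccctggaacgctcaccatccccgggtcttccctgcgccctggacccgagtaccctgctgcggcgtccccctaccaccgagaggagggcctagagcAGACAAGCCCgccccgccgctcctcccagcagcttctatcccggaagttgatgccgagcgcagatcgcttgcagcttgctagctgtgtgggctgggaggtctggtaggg
The DDB2 window was among only 10 with both units free of mismatches, with 1 base between them, beginning 5 bases after the start. The MDM2 site, with 2 mismatches, began 94 bases before the start and the AEN site 34 bases before it. MDM2 fell on the normalized scale while DDB2 and AEN did not pass, and the EI24 and RPS27L windows, from genes that rose, each held 1 matched unit. ZMAT3, PLK3 and TIGAR, which also rose, had no such match in their windows. Sequence outside the windows was not searched, so a gene without a match here may hold a site elsewhere. A window of SESN1, which did not pass, and that of PLK2, too dim to be tested, each held 1 matched unit. These matches describe letters in the windows and not binding.

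Among the genes of cell cycle arrest, the GADD45 pair fell, PLK3 rose and CDKN1A did not pass. GADD45A, a small stress protein that slows cycling and engages stress kinases, read 1963.5 and 2010.3 on the DLEU1-downregulated arrays and 3673.7 and 3802 on the control arrays. The arrays of each clone lay close together and far from the other clone, with a log2 change of -0.91 ± 0.05 (SE, adjusted p = 3.39e-06). The fall passed as deposited too (-0.53, adjusted p = 0.0389), but not as deposited without the intensity trend (adjusted p = 0.13). GADD45B, its relative, read 538.9 and 520.9 in the DLEU1-downregulated clone and 847.8 and 824.1 in the control clone, a change of -0.64 (adjusted p = 0.000148) that did not pass as deposited (-0.28, adjusted p = 0.461).

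CDKN1A encodes p21, the inhibitor of cyclin-dependent kinases through which p53 stops the cell cycle. It read 317.7 and 338.4 in the DLEU1-downregulated clone against 365.6 and 443 in the control clone. The groups did not overlap, yet the log2 change of -0.28 ± 0.11 (SE) had adjusted p = 0.0734, and on the deposited values it was 0.04 (adjusted p = 0.935). With single arrays left out the change of CDKN1A ran from -0.42 to -0.15. PLK3, a polo-like kinase that responds to stress, read 60 and 80.3 in the DLEU1-downregulated clone and 25 and 19.1 in the control clone. The log2 change was 1.17 ± 0.21 (SE, adjusted p = 0.00257). On the deposited values its control readings of 27.7 and 17.7 were close to the medians of those arrays, 22.6 and 18.4, and detection calls are not given in the sources used here, so the fold is uncertain. SERTAD1, a regulator of cyclin D kinases, had overlapping groups, with 61 and 78.5 in the DLEU1-downregulated clone and 58.8 and 71.7 in the control clone (adjusted p = 0.796). PLK2, the relative of PLK3, was too dim to be tested, with 2 and 7.1 in the DLEU1-downregulated clone against 11.5 and 19.8 in the control clone. Of the 5 genes of this role that were tested, 1 rose and 2 fell, beside 20.6% of all genes in each direction. As deposited 1 rose and 1 fell, beside 20.3% and 5.75%.

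In DNA repair and nucleotide supply, 2 of 4 genes fell and limma called no rise, beside 20.6% of all genes in each direction. Neither fall passed as deposited. POLH, the polymerase that copies past ultraviolet lesions, read 179.3 and 208.2 in the DLEU1-downregulated clone and 384.3 and 370.5 in the control clone, so that both arrays of the downregulated clone stood clear of the control. The log2 change was -0.91 ± 0.11 (SE, adjusted p = 0.000218), and -0.60 as deposited (adjusted p = 0.0823). XPC, which recognises damaged DNA in nucleotide excision repair, read 338.5 and 319.7 in the DLEU1-downregulated clone against 434.2 and 520.6 in the control clone, a change of -0.51 (adjusted p = 0.00476) that was -0.18 as deposited (adjusted p = 0.685). DDB2, another sensor of ultraviolet damage, read 1132.2 and 1210.2 in the DLEU1-downregulated clone and 1254.6 and 1406.3 in the control clone. Its change of -0.18 did not pass (adjusted p = 0.0863), and with single arrays left out it ran from -0.26 to -0.0986. RRM2B, the ribonucleotide reductase subunit induced by p53, read 857.6 and 785 in the DLEU1-downregulated clone against 1110.9 and 891.7 in the control clone. The 2 control arrays differed more from each other than the near control array from the downregulated clone, and the change of -0.27 did not pass (adjusted p = 0.0678). With single arrays left out the change of RRM2B ran from -0.42 to -0.12.

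Among the metabolic genes 1 of 3 tested rose and none fell by limma, beside 20.6% of all genes in each direction. TIGAR, a phosphatase that lowers glycolysis and favours the pentose phosphate route, read 2261.5 and 2257.5 in the DLEU1-downregulated clone and 1648.7 and 1748.1 in the control clone. The log2 change was 0.41 ± 0.05 (SE, adjusted p = 0.000401), and 0.77 as deposited (adjusted p = 0.00291). SESN1, a sestrin that restrains mTOR signalling, had overlapping groups, with 282.4 and 301.6 in the DLEU1-downregulated clone and 292.9 and 280.1 in the control clone (log2 change 0.03, adjusted p = 0.868). TP53I3, a quinone oxidoreductase of the oxidative stress response, was dim and overlapping as well, with 83.1 and 75.2 in the DLEU1-downregulated clone against 69.9 and 81.6 in the control clone (adjusted p = 0.834). The unadjusted limma p was 0.794 for SESN1 and 0.745 for TP53I3.

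The genes of apoptosis, survival and autophagy were divided, with 2 rises and 1 fall among 5 tested, beside 20.6% of all genes in each direction. ZMAT3, a zinc finger protein that binds RNA, read 2048.8 and 2238.6 in the DLEU1-downregulated clone and 1506.4 and 1454.7 in the control clone (log2 change 0.53, adjusted p = 0.000194, and 0.89 as deposited with adjusted p = 0.000565). EI24, an endoplasmic reticulum membrane protein of autophagy, read 2035.9 and 2342.8 in the DLEU1-downregulated clone and 1464.8 and 1290.8 in the control clone. Its log2 change was 0.66 (adjusted p = 0.000319), and 1.02 as deposited (adjusted p = 5.82e-05). TRIAP1, a small mitochondrial protein that favours survival, went down, with 1760.1 and 1715.4 in the DLEU1-downregulated clone against 2339.8 and 2404.9 in the control clone. That change of -0.45 (adjusted p = 0.000185) was -0.07 as deposited (adjusted p = 0.853). AEN, an apoptotic nuclease, had 263.8 and 319.7 in the DLEU1-downregulated clone around the control readings of 303.7 and 288.3 (adjusted p = 0.889). PHLDA3, a repressor of AKT, was dim, and its groups overlapped, with 44.1 and 25.6 in the DLEU1-downregulated clone against 21.8 and 42.2 in the control clone (adjusted p = 0.840). DRAM1, a lysosomal membrane protein of autophagy, read 7 and 5.6 in the DLEU1-downregulated clone and 3.1 and 4.2 in the control clone, and was too dim to be tested. PERP, a membrane protein of apoptosis and of epithelial junctions, was likewise too dim in all 5 of its probe sets.

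Several members were measured by more than 1 probe set, which gives a further view of the same RNA. Of the 59 tested probe sets of members, 11 rose, 21 fell and 27 did not pass, against 17.1% rising and 16.7% falling among all 32768. As deposited 12 of these probe sets rose and 7 fell, beside 17.2% and 5.11% of all probe sets. All 5 ZMAT3 probe sets rose, by 0.29 to 1.25 on the log2 scale, and 4 of them passed as deposited (the fifth had adjusted p = 0.0508 in limma), and both EI24 probe sets rose. Of 8 tested MDM2 probe sets 5 fell and limma called no rise, and of 6 MDM4 probe sets 4 fell. MDM4 had its largest change in a dimmer probe set, with 79.3 and 87.7 in the DLEU1-downregulated clone and 311 and 326.7 in the control clone. That change of -1.75 (adjusted p = 1.13e-05) passed as deposited too (-1.48, adjusted p = 4.97e-07), unlike the change of the brightest MDM4 probe set. As deposited, 2 dimmer MDM2 probe sets fell as well, one by 0.90 (adjusted p = 0.00388), which carries the suffix for possible cross-hybridisation, and one by 0.79 (adjusted p = 0.0299). For GADD45B 3 of 4 probe sets fell, and 1 of them passed on the deposited values (-0.96, adjusted p = 0.00234). FBXO22 was split, since its second probe set rose by 0.31 (adjusted p = 0.0127) while the brightest one had -0.19. POLH had 3 falls and 3 probe sets that did not pass, 1 of them with a change of 0.06. For RPS27L, PLK3 and PPM1D the call rested on the brightest probe set alone after normalization. The other PPM1D probe set had -0.25 (limma adjusted p = 0.489), and the dimmest RPS27L probe set had -0.19 (adjusted p = 0.460). With the mean of its probe sets in place of the brightest, RPS27L had 0.07 and did not pass (adjusted p = 0.397).

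**Figure D3:**
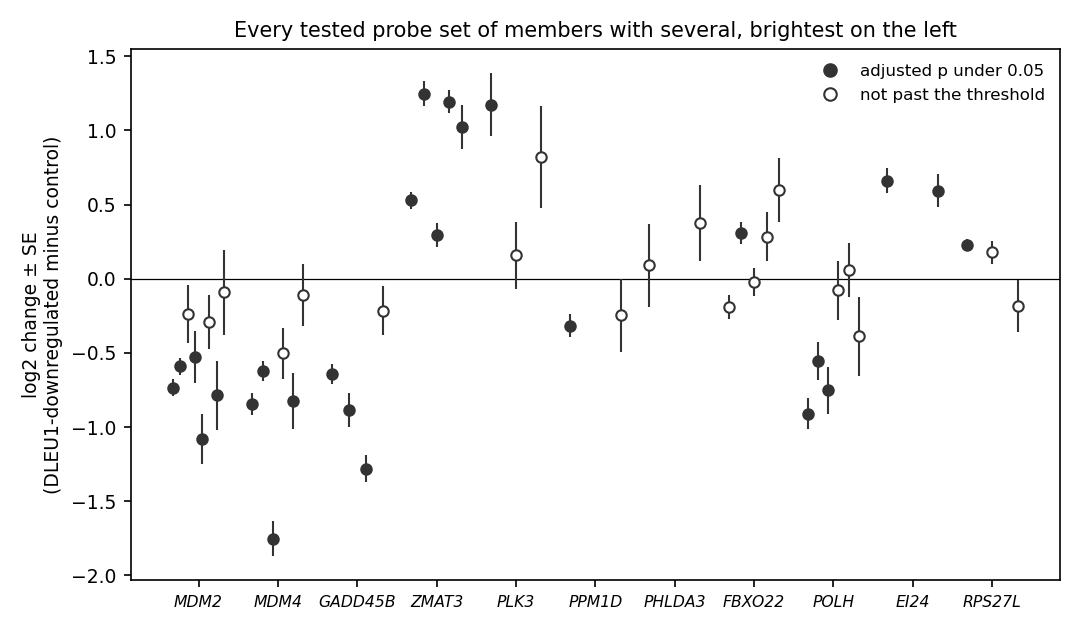
Log2 change with standard error (DLEU1-downregulated minus control, quantile normalized) of every tested probe set of the members that have more than 1, ordered within a gene from brightest on the left to dimmest. Filled points have an adjusted p below 0.05. The ZMAT3 and EI24 probe sets all lie above 0 and the tested MDM2 and MDM4 probe sets all below it.

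Position along the chromosome was compared with the members' changes, because clones can differ in copy number. The 10 tested genes on either side, in the order of RefSeq GRCh38.p14, gave the local level. Around TP53INP1, on chromosome 8, 9 of 20 neighbours rose and 2 fell (median log2 change 0.22), opposite in sign to this gene's change. Around ZMAT3, on chromosome 3, 11 of 20 fell and 1 rose (median -0.29), again opposite in sign to the member. Around GADD45A, on chromosome 1, 8 of 20 fell and 1 rose (median -0.40), and around TIGAR, on chromosome 12, 6 of 20 rose and 1 fell (median 0.22), each median with the sign of the member. Over all genes 20.6% passed in each direction. The other members had neighbour medians from -0.18 to 0.16. The 24 tested members lay on chromosomes whose median change ran from -0.10 to 0.05, and none lay on chromosome 7 or 20, whose medians were 0.31 and 0.29. Copy number itself was not measured.

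The rest of the pathway was described with 4 further lists, whose medians are set beside the median of -0.01 over all genes. Over all tested genes 20.6% rose and 20.6% fell, and as deposited 20.3% rose and 5.75% fell. No list was tested as a whole. Of 35 tested p53 regulators and cofactors (41 listed), 7 rose (20%) and 6 fell (17.1%), with a median of -0.06. The damage kinase ATM read 334.8 and 318.4 in the DLEU1-downregulated clone and 575.6 and 574.6 in the control clone (log2 change -0.79, adjusted p = 0.000107), but did not pass as deposited (-0.45, adjusted p = 0.204). BRD7, a bromodomain cofactor of p53, rose by 0.50 (adjusted p = 0.000285), and KMT5A, a methyltransferase that modifies p53, by 0.52 (adjusted p = 0.00152). RCHY1, another ubiquitin ligase of p53, fell by 0.38 (adjusted p = 0.00116), with a change of -0.03 as deposited. As deposited 5 of this list rose and limma called no fall.

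Of 18 tested p53 targets of apoptosis (22 listed), 2 rose (11.1%) and 6 fell (33.3%), with a median of -0.08. BNIP3L, a mitophagy receptor of the outer mitochondrial membrane, read 416.5 and 440 in the DLEU1-downregulated clone and 1338 and 1315.4 in the control clone. It fell by 1.60 (adjusted p = 1.48e-06) and also passed as deposited. BID, which links death receptors to mitochondria, read 818.9 and 829.8 in the DLEU1-downregulated clone against 415.8 and 431.1 in the control clone and rose by 0.94 (adjusted p = 2.25e-05). PMAIP1, the BH3-only protein NOXA, fell by 0.42 (adjusted p = 0.000142) and the death receptor gene TNFRSF10B by 0.66 (adjusted p = 0.000401), and neither passed as deposited. There the list held 2 rises and 1 fall.

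Of 35 other direct targets tested (52 listed), 9 rose (25.7%) and 9 fell (25.7%), with a median of 0.08. GPX1, a glutathione peroxidase, read 1113.1 and 1122 in the DLEU1-downregulated clone and 553.2 and 536.3 in the control clone and rose by 1.02. BTG1, an antiproliferative relative of BTG2, read 1284.7 and 1454.1 in the DLEU1-downregulated clone against 2935.5 and 2815.5 in the control clone and fell by 1.06. SUSD6, a membrane protein, fell by 1.06 as well. SESN2, the stress-induced sestrin, read 111 and 123.4 in the DLEU1-downregulated clone against 313.5 and 299.4 in the control clone and fell by 1.28 (adjusted p = 4.75e-05). SESN3, named after its value was seen, fell by 0.98 (adjusted p = 0.000197), so that both of the other sestrins were lower while SESN1 had 0.03. All 5 of these calls also passed as deposited, where the list held 9 rises and 4 falls.

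Of 19 tested genes that p53 lowers through p21 and the DREAM repressor complex, 4 rose (21.1%) and 9 fell (47.4%). The median was -0.11. The kinase CDK1 fell by 0.59 (adjusted p = 1.01e-05) and its partner subunit CKS1B by 0.77 (adjusted p = 6.13e-06), and neither passed as deposited. The replication helicase subunit MCM7 rose by 0.77 and the transcription factor MYBL2 by 0.88. Both rises also passed as deposited, at 1.15 and 1.23. As deposited this list held 4 rises and 1 fall.

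**Figure D4:**
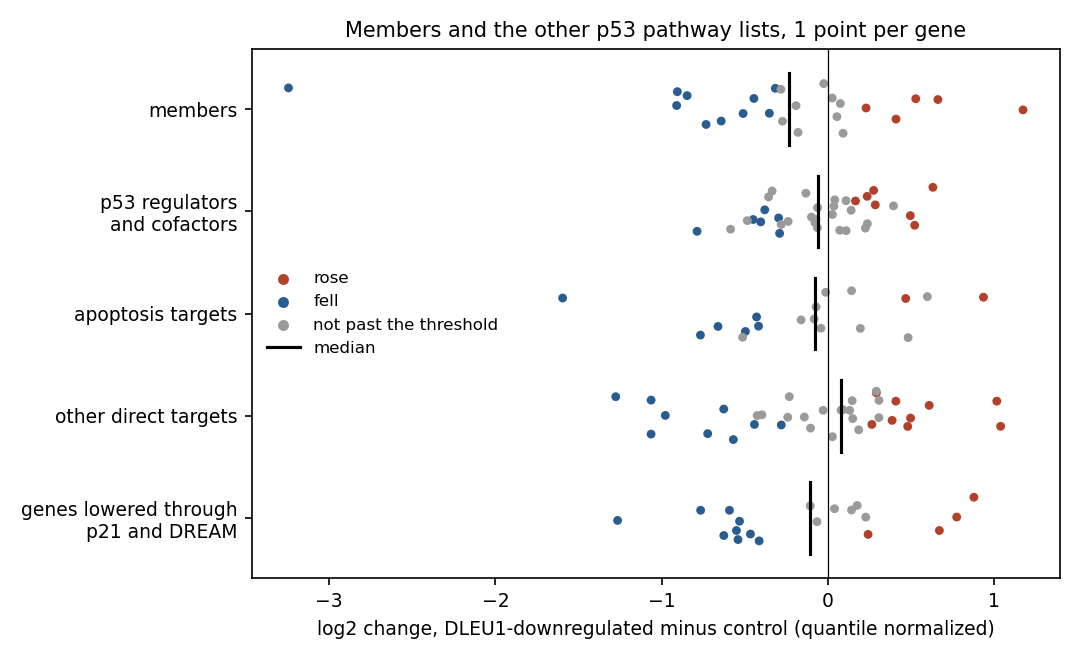
Log2 change (DLEU1-downregulated minus control, quantile normalized) of each tested gene in the members and in 4 other lists of the pathway, coloured by call, with a bar at each list's median. The medians run from -0.23 in the members to 0.08 in the other direct targets.

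The targeted gene and the cell identity were read on the same arrays. DLEU1 read 504.5 and 513.3 in the DLEU1-downregulated clone and 1400.4 and 1300.5 in the control clone, a log2 change of -1.38 (adjusted p = 2.92e-06). On the values as deposited, log2 intensities of all probe sets, tested or not, correlated at 0.989 between the DLEU1-downregulated arrays. The correlation was 0.986 between the control arrays and 0.970 to 0.971 between clones. All 7 measured B-cell markers of 8 listed were bright. Their summed intensity was 19409 to 19743 in the DLEU1-downregulated clone and 20880 to 20943 in the control clone. Among them limma called 1 rise and 5 falls, beside 20.6% of all tested genes in each direction. As deposited the rise, that of CD74, was the 1 call among these markers, beside 20.3% rising and 5.75% falling over all genes. The lists for myeloid and epithelial cells summed to at most 72, with no call by limma. The list for T and natural killer cells summed to 175 to 189 in the DLEU1-downregulated clone and 104 to 112 in the control clone, with CD247 as its 1 rise, and the fibroblast list to 106 to 169 in the DLEU1-downregulated clone against 182 to 242 in the control clone, with COL1A2 as its 1 fall. The part of such cells in the members' changes was not tested, and CD3D and CD3E read at most 17.5 on every array.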

How the data were processed

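Raji RNA was profiled on 4 arrays, 2 per clone. The authors deposited 1 table of linear signal intensity for 54613 probe sets and 62 control probe sets. Per the submitters' processing notes it was made with MAS5, and its version, target and detection calls are not given in the sources used here. No batch or date is named in the labels.

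Control probe sets were left out, the arrays were quantile normalized, 16 was added and log2 taken. The 21845 probe sets whose mean lay below the 40th percentile were not tested. The remaining 32768 were fitted with limma 3.58.1 in R 4.3.3 (lmFit, eBayes with an intensity trend), with group as the only term and the difference taken as DLEU1-downregulated minus control. P-values were adjusted by Benjamini-Hochberg over all tested probe sets, and 0.05 was the threshold. The fit was tested on simulated log2 values that did not pass through the normalization step, so that test says nothing about the choice of scale. Symbols came from the platform annotation of 2016, updated by gene identifier through RefSeq GRCh38.p14. Of the probe sets, 41097 carried 1 symbol, 1801 several and 11715 none, and those with 1 were used. A gene was its brightest probe set. All members were named, with the 4 genes of smallest p in each other list. Members and lists were chosen with earlier results of these data known. Alternatives covered scaling, pseudocount, filter, trend, replicate block, single arrays and the choice of probe set. Precision is limited by the number of arrays.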

Additional observations from a re-analysis of the deposited data

How the results depend on the processing

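The 15 calls among the members kept their sign with each array left out in turn. PPM1D failed to pass in some of these fits. The 15 calls held with a lower and a higher pseudocount, without a filter or with a stricter one and with a common trimmed mean. No tested member had a brightest probe set with the suffix _x_at, so leaving out such probe sets could change no call. The number that fell was 10 after quantile normalization and with a common trimmed mean, 5 after median centring and 2 as deposited. It was 1 as deposited without an intensity trend, a setting added after the data were seen. Over all 32768 tested probe sets, 10420 rose and 2482 fell after median centring, and 5114 rose and 6280 fell with a common trimmed mean. With a demand of at least 2-fold, 1 member rose and 1 member fell. Without a trend 7156 probe sets passed in place of 11073, and XPC, CCNG1, PPM1D and RPS27L did not. There were 7293 as deposited (7142 without a trend), of which 77.1% rose against 50.5% after normalization, 1873 at 2-fold, and 7010 to 10078 with an array left out. With probe sets averaged per gene 4 rose and 9 fell, and PPM1D (adjusted p = 0.111) and RPS27L (0.397) did not pass. Without chromosomes 6, 7, 8, 11 and 20 there were 4 rises and 8 falls among 17 tested members. Chromosomes 7 and 20 held no tested member, and no share over all genes was taken for this subset. Members that changed sign as deposited did so at log2 changes of 0.0432 for CDKN1A, 0.164 for DDB2, 0.0966 for RRM2B and 0.0201 for CCNG1. AEN had 0.289, PPM1D 0.0300 and FBXO22 0.152. After median centring the same genes had 0.0872, 0.208, 0.141, 0.0642, 0.333, 0.0740 and 0.196. With a common trimmed mean TP53I3 had -0.0293, SERTAD1 -0.0219 and PHLDA3 -0.0885, and with the mean of its probe sets FBXO22 had 0.195. These reversed values did not pass in limma. With single arrays left out the change ranged from -0.0402 to 0.15 for TP53I3, -0.0194 to 0.0686 for SESN1, -0.16 to 0.11 for AEN, -0.0730 to 0.22 for SERTAD1 and -0.23 to 0.42 for PHLDA3. The cause of these differences was not tested. After quantile normalization, deviations of same-numbered arrays correlated at -0.0139. With 2 arrays a group this cannot tell whether same-numbered arrays were processed together. The limma fit with the replicate block gave 5 rises and 12 falls, with CDKN1A (adjusted p = 0.0466) and RRM2B (0.0163) added. Dim members, PLK3 and PHLDA3 among them, are limited by signal near background.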
